A study of Mus musculus with 8 samples.

Results

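The WAP four-disulfide core genes described here are 8 of the 23 genes of the WFDC family listed in the expression table: Wfdc2, Slpi, Wfdc17, Wfdc1, Wfdc6b, Wfdc3, Wfdc15b and Wfdc12. They were chosen on their TPM (reads per gene divided by transcript length and scaled to a fixed total per library) in these same hSKP2-KI and WT samples, so their genotype differences are a description: no p is printed for them, and where the text says that one was called or not called by the fit over all genes, that is not independent evidence. The sequenced RNA came from ventral lobes of 12-month-old male mice, 4 carrying the hSKP2-KI allele and 4 WT, with 1 library per mouse. The knock-in males were bred from heterozygous females and wild-type FVB/N males. The strains of those females and of the WT mice are not given in the sources used here. In the hSKP2-KI mice, a P2A-linked human SKP2 coding sequence had been inserted by CRISPR/Cas9 into exon 1 of the endogenous mouse probasin gene, so that the probasin promoter, active in prostate epithelium, drives it. The WT mice carry no insertion, and which founder line gave the 4 hSKP2-KI mice is not given in the sources used here. The study compared the genotypes to find what the knock-in changes in the gland.

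A WAP domain is a short fold held together by a set of disulfide bonds between paired cysteines, named after whey acidic protein of milk. Several small secreted proteins built from one or more such domains inhibit serine proteases of leukocytes and epithelia, and some also act against bacteria. Slpi, the secretory leukocyte peptidase inhibitor, blocks neutrophil elastase and cathepsin G and is made by many mucosal epithelia and by macrophages. Wfdc2, also called HE4, is a secreted product of genital tract and airway epithelium, and Wfdc1 is also known as ps20, a protein first described as secreted by prostate stroma. Wfdc17 is a small secreted protein expressed by activated mouse macrophages. For Wfdc3, Wfdc6b, Wfdc12 and Wfdc15b, roles in the prostate are less well described.

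The domain can be read in the coding sequences of the members. The coding stretches of the cores with 8 cysteines are shown for the 5 members on which the results mainly turn, because the spacing of the cysteines is what the family shares while the bases between them differ. The sequences are from GENCODE M21 on GRCm38, written 5′ to 3′ on the coding strand, with the codons of the 8 core cysteines in capitals.
Wfdc2 core 1: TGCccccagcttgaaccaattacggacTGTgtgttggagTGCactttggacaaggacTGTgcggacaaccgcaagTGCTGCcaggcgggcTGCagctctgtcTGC
Wfdc2 core 2: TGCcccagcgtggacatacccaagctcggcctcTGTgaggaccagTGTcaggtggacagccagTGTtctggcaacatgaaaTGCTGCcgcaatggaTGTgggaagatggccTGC
Slpi core 1: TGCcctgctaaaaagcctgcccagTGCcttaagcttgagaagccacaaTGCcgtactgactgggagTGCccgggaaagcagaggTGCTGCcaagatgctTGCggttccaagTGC
Slpi core 2: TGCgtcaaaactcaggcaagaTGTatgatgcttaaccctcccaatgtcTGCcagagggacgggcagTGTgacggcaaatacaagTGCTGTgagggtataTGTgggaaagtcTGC
Wfdc17 core 1: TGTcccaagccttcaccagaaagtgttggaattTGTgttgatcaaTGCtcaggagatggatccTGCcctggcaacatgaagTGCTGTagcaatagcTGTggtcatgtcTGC
Wfdc1 core 1: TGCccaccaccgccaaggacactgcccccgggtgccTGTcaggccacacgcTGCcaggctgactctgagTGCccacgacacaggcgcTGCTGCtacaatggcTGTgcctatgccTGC
Wfdc3 core 1: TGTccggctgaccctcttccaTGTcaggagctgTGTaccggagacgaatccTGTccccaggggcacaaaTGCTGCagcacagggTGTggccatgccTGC
Wfdc3 core 2: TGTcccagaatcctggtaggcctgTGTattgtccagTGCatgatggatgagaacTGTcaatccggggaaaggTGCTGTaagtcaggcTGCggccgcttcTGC
Each of these cores lies within a single coding exon. The Wfdc2 cores lie at chr2:164563334-164563438 and chr2:164565806-164565919 on the plus strand, in exons 2 and 4. The Slpi cores lie at chr2:164355479-164355592 and chr2:164354892-164355005 on the minus strand, in exons 2 and 3. The Wfdc17 core lies at chr11:83704814-83704924 on the plus strand and the Wfdc1 core at chr8:119679316-119679432 on the plus strand, both in exon 2. The Wfdc3 cores lie at chr2:164734199-164734297 and chr2:164732078-164732179 on the minus strand, in exons 2 and 3.

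Wfdc2, Slpi and Wfdc3 each held 2 such cores and Wfdc17, Wfdc1, Wfdc15b and Wfdc12 held 1. The coding sequence of Wfdc6b held none by the spacing searched, although 14 of its 148 codons encode cysteine. The 2 cores of Slpi had 44 of 114 bases in common, or 38.6%. The core of Wfdc17 shared 93 of 111 bases (83.8%) with that of its neighbour Wfdc18, and the core of Wfdc15b shared 85 of 111 bases (76.6%) with that of Wfdc15a. Wfdc18 was listed between 0 and 0.273 TPM and Wfdc15a at 0 in all 8 samples. How the authors assigned reads that match more than one gene is not given in the sources used here, so the values of Wfdc17 and Wfdc15b carry that uncertainty, as do those of Wfdc6b, which has a paralog, Wfdc6a, listed between 0.124 and 0.788 TPM.

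Of the 8 members, 6 sit in 1 cluster. On GRCm38, 16 of the 23 family genes lie on chromosome 2 between 164176325 and 164745994, a span of 570 kb that holds 32 protein-coding genes of the table, of which 16 belong to the family and 16 do not. The order of the members along it is Wfdc12, Wfdc15b, Slpi, Wfdc2, Wfdc6b and Wfdc3. Wfdc17 lies at chr11:83704056-83706269, beside Wfdc18 and Wfdc21, and Wfdc1 at chr8:119666365-119688020. Between Wfdc15b and Slpi lie the seminal vesicle secretory genes Svs2, Svs3b, Svs4, Svs3a, Svs6 and Svs5, none of which exceeded 0.486 TPM in any sample.

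**Figure D1:**
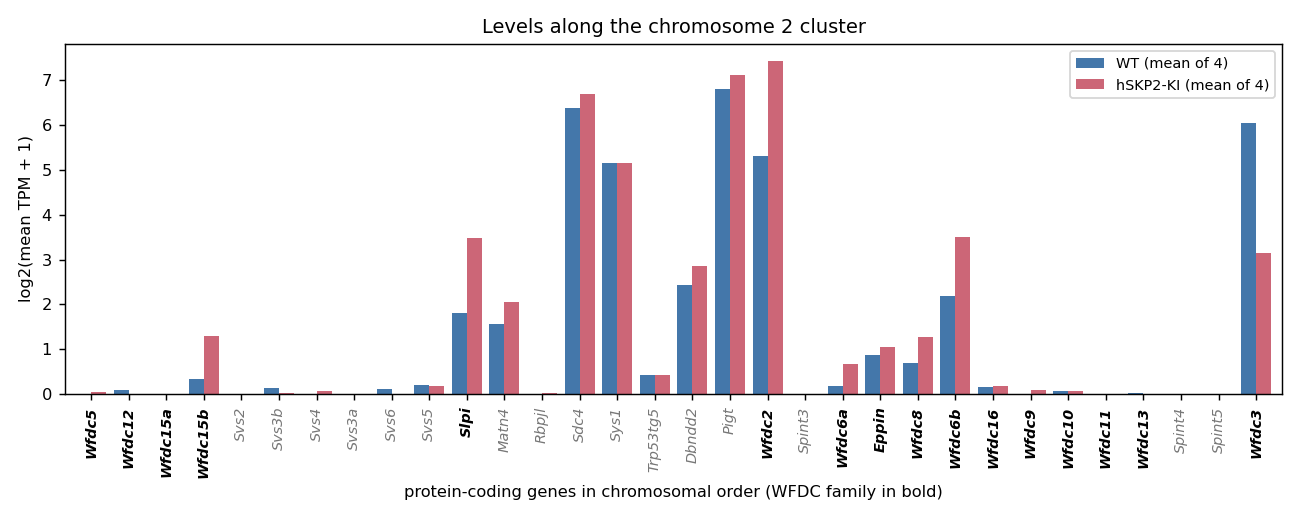
Bars show log2(mean TPM + 1) over 4 WT (blue) and 4 hSKP2-KI (red) mice for the 32 protein-coding genes of the chromosome 2 cluster, in chromosomal order with equal spacing and WFDC family genes in bold. Only 4 of the 16 family genes (Slpi, Wfdc2, Wfdc6b and Wfdc3) passed the filter on low values, and they are not neighbours of one another.

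The genotypes could be told from the targeted genes. Mouse Skp2 had 37.3 to 60.6 TPM in hSKP2-KI and 1.05 to 2.27 TPM in WT samples, and Pbsn, the probasin gene, had 93.0 to 174 TPM in hSKP2-KI and 3980 to 9232 TPM in WT samples. Whether reads of human SKP2 were counted on mouse Skp2 is not given in the sources used here. Every library sums to 1000000 TPM, so its read depth is unknown and no counting error can be given. Genes of the mitochondrial genome such as COX1 and CYTB, which all these cells use, also stand at 0 throughout, and a 0 in this table therefore does not show that a transcript was absent. On the log2(TPM + 1) scale, the median difference of the 13080 genes tested was 0.23 (hSKP2-KI minus WT), so that the typical gene stood somewhat higher in hSKP2-KI samples. The 6 ventral lobe secretory genes of the marker list stood lower there in sum, with 328683 to 353246 TPM in hSKP2-KI and 411451 to 463955 TPM in WT samples. Differences are therefore also given after median-ratio scaling, which divides each sample by the median ratio of its genes to their geometric mean over samples and brings that median to -0.01.

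Of the 8 members, 6 passed the filter of at least 1 TPM in at least 4 of the 8 samples, and 2, Wfdc15b and Wfdc12, did not. Among the 6, Wfdc2, Wfdc17, Wfdc1 and Wfdc6b were among the genes with an adjusted p under the threshold of 0.05 (limma) and higher in hSKP2-KI samples. That is 4 of 6, where 32.7% of the 13080 genes were called in that direction. None of the 6 was called lower, against a background of 1.23%. After median-ratio scaling, 3 of the 6 (Wfdc2, Wfdc17 and Wfdc1) were called higher and none lower, where 6.92% of all genes were called higher and 4.25% lower. The same 3 had no overlap between genotypes on either scale, where 34.0% of the tested genes as deposited, and 10.3% after scaling, lay higher in hSKP2-KI samples with no overlap. Because the members were chosen with this contrast known, nothing is read from these shares.

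**Figure D2:**
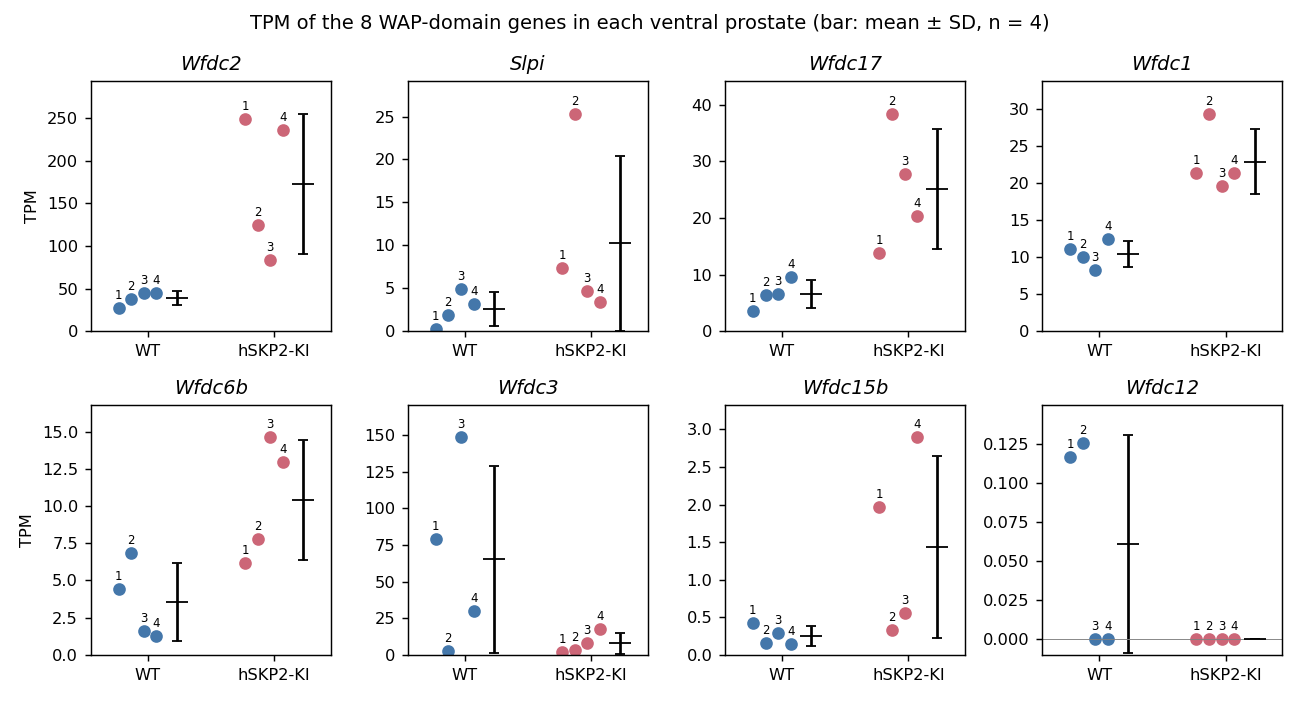
Points give the TPM of each of the 8 genes in each mouse (number: replicate; blue: WT; red: hSKP2-KI), and bars give the mean ± SD of 4 mice. The genotypes do not overlap for Wfdc2, Wfdc17 and Wfdc1, while Slpi, Wfdc6b, Wfdc3 and Wfdc15b overlap and Wfdc12 is near 0 throughout.

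Wfdc2 was the most abundant member in hSKP2-KI prostates. Its TPM was 249, 124, 83.3 and 236 in hSKP2-KI mice 1 to 4 and 27.2, 38.2, 45.0 and 45.1 in WT mice 1 to 4. All 4 hSKP2-KI values lay above all 4 WT values, and hSKP2-KI mice 1 and 4 stood well above mice 2 and 3. The means were 173 ± 82.0 (SD, n = 4) and 38.9 ± 8.43 (SD, n = 4) TPM, a ratio of 4.45. The log2 difference was 2.01 (standard error 0.31) as deposited and 1.75 (standard error 0.32) after median-ratio scaling. Wfdc2 alone made up 52.5% to 82.6% of the summed TPM of the 8 members in hSKP2-KI samples and 20.9% to 57.6% in WT samples.

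Slpi was low and variable in both genotypes. Its TPM was 7.33, 25.4, 4.65 and 3.39 in hSKP2-KI mice 1 to 4 and 0.193, 1.87, 4.81 and 3.15 in WT mice 1 to 4. hSKP2-KI mouse 2 and WT mouse 1 mark the ends of this range, and the remaining hSKP2-KI and WT values lie close together, with WT mouse 3 above hSKP2-KI mice 3 and 4. The means were 10.2 ± 10.2 (SD, n = 4) and 2.50 ± 1.96 (SD, n = 4) TPM. The log2 difference of 1.51 (standard error 0.57) was not among the called genes. It was 0.97 without hSKP2-KI mouse 2 and 1.07 without WT mouse 1, and it was among the called genes without hSKP2-KI mouse 4, at 1.83, and without WT mouse 3, also at 1.83.

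Wfdc17, the macrophage-expressed member, had 13.9, 38.4, 27.8 and 20.3 TPM in hSKP2-KI mice 1 to 4. In WT mice 1 to 4 it had 3.60, 6.40, 6.60 and 9.56 TPM. The genotypes did not overlap, and hSKP2-KI mouse 2 was highest, as it was for Slpi and Wfdc1. The means were 25.1 ± 10.6 (SD, n = 4) and 6.54 ± 2.44 (SD, n = 4) TPM, a ratio of 3.84. The log2 difference was 1.76 (standard error 0.30), or 1.52 (standard error 0.29) after median-ratio scaling.

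Wfdc1, known from prostate stroma, varied least within a genotype. Its TPM was 21.3, 29.3, 19.5 and 21.3 in hSKP2-KI mice 1 to 4 and 11.0, 10.0, 8.23 and 12.4 in WT mice 1 to 4. The lowest hSKP2-KI value stood above the highest WT value, and within either genotype the highest value was 1.5 times the lowest. The means were 22.9 ± 4.40 (SD, n = 4) and 10.4 ± 1.75 (SD, n = 4) TPM, a ratio of 2.19. The log2 difference was 1.06 (standard error 0.14) as deposited and 0.81 (standard error 0.15) after median-ratio scaling.

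Wfdc6b had 6.19, 7.78, 14.6 and 13.0 TPM in hSKP2-KI mice 1 to 4 and 4.40, 6.84, 1.59 and 1.30 TPM in WT mice 1 to 4. The groups overlapped at 1 point, where WT mouse 2 stood above hSKP2-KI mouse 1. The means were 10.4 ± 4.04 (SD, n = 4) and 3.53 ± 2.61 (SD, n = 4) TPM. The log2 difference was 1.44 (standard error 0.38) as deposited, where it was called, and 1.22 (standard error 0.40) after median-ratio scaling, where it was not. Wfdc6b overlaps Wfdc8 by 116 bases on the opposite strand, and Wfdc8 had at most 2.61 TPM, in the same sample in which Wfdc6b was highest. Whether strand was used in counting is not given in the sources used here.

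Wfdc3 was the only one of the 6 with a lower mean in hSKP2-KI samples. Its TPM was 1.94, 3.36, 8.06 and 17.8 in hSKP2-KI mice 1 to 4 and 79.2, 2.73, 148 and 30.2 in WT mice 1 to 4. WT mice 1, 3 and 4 stood above every hSKP2-KI mouse, while WT mouse 2 stood below 3 of the 4. Within WT samples the highest value was 54.4 times the lowest, the widest spread of any member listed above 0 in all 8 samples. The means were 7.79 ± 7.17 (SD, n = 4) and 65.1 ± 63.9 (SD, n = 4) TPM. The log2 difference of -2.33 (standard error 0.97) was not among the called genes. With single mice left out it ranged from -1.62, without WT mouse 3, to -3.40, without WT mouse 2, and it was called only in the latter case. After median-ratio scaling it was -2.57 (standard error 1.04). The annotated ends of Wfdc3 and Dnttip1, on the opposite strand, overlap by 12 bases, and Dnttip1 had 31.5 to 37.4 TPM in all 8 samples.

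The 2 members below the filter were near the bottom of the table. Wfdc15b had 1.96, 0.330, 0.552 and 2.89 TPM in hSKP2-KI mice 1 to 4 and 0.429, 0.154, 0.291 and 0.146 TPM in WT mice 1 to 4, so that it reached 1 TPM in 2 samples, hSKP2-KI mice 1 and 4. These are also the mice with the highest Wfdc2, whose gene lies in the same cluster. WT mouse 1 stood above hSKP2-KI mouse 2, so the groups overlapped. Wfdc12 was listed at 0 in all 4 hSKP2-KI samples and in WT mice 3 and 4, and had 0.116 and 0.125 TPM in WT mice 1 and 2. No fold is given for it.

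**Figure D3:**
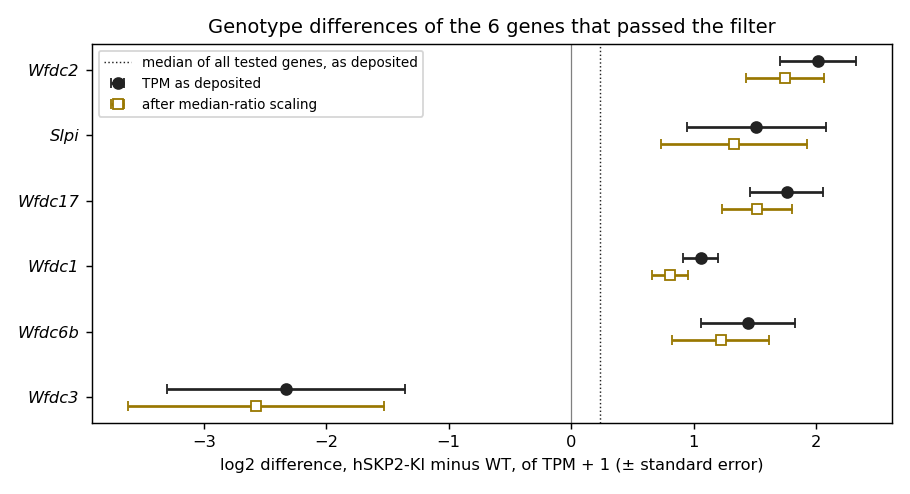
The x axis gives the log2 difference of TPM + 1 (hSKP2-KI minus WT) ± standard error for the 6 genes that passed the filter, with TPM as deposited (filled circles) and after median-ratio scaling (open squares), and the dotted line marks the median of all 13080 genes tested, 0.23. The 5 genes other than Wfdc3 lie to the right of it on both scales and Wfdc3 lies to the left, at -2.33 and -2.57.

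The order of the mean levels, compared per length as TPM allows, differed between genotypes. In WT prostates Wfdc3 came first at 65.1 TPM and Wfdc2 next at 38.9 TPM, but their values overlapped, since WT mouse 2 had little Wfdc3. Wfdc2 lay above Wfdc1 without overlap, and Wfdc1, Wfdc17, Wfdc6b, Slpi and Wfdc15b followed, each overlapping its neighbour in that order. In hSKP2-KI prostates Wfdc2 stood first and clear of all others. Wfdc17 and Wfdc1 came next and overlapped each other, and Wfdc1 lay above Wfdc6b without overlap. Slpi in hSKP2-KI mouse 2, at 25.4 TPM, lay within the ranges of both Wfdc17 and Wfdc1. The highest Wfdc6b and Wfdc3 values, 14.6 and 17.8 TPM, lay above the lowest Wfdc17 value, 13.9 TPM. Wfdc6b, Slpi and Wfdc3, with means of 10.4, 10.2 and 7.79 TPM, overlapped each other. The summed TPM of the 8 members was 251 ± 72.2 (SD, n = 4) in hSKP2-KI and 127 ± 63.3 (SD, n = 4) in WT samples, with WT mouse 3, at 215, inside the hSKP2-KI range of 158 to 314.

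The remaining 15 family genes were low or listed at 0. None passed the filter, 4 reached 1 TPM in any sample, and 3 (Wfdc11, Wfdc15a and Wap) were at 0 in all 8. Wfdc8 had 0.774 to 2.61 TPM in hSKP2-KI and 0.327 to 0.790 TPM in WT samples. Wfikkn2, which carries a WAP domain beside other inhibitor domains, had 0.852 to 1.70 TPM in hSKP2-KI and 0.323 to 0.661 TPM in WT samples. The epididymal protease inhibitor Eppin had 0.755 to 1.81 TPM and 0.569 to 1.26 TPM, and Wfdc21 reached 1 TPM only in hSKP2-KI mouse 2, at 1.33. Wap itself, the milk protein gene, was among the 3 at 0.

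In bulk tissue, more cells of a type and more RNA per cell cannot be told apart, so levels of marker genes for 11 cell types and tissues are given beside the members. Each list's mean log2(TPM + 1) was compared between genotypes by a two-sided exact permutation test over 70 assignments, whose smallest p is 0.0286, with Benjamini-Hochberg adjustment over the 11 lists. These lists, and the protease and inhibitor lists below, were chosen with earlier results of these data known, so their p are not independent evidence. The ventral lobe secretory list was present in every sample and lower in all 4 hSKP2-KI mice, with means of 12.9 ± 0.117 (SD, n = 4) against 13.5 ± 0.0990 (SD, n = 4) and an adjusted p of 0.0449 by exact permutation. Its genes did not move alike. Msmb, which encodes a secreted protein of the gland, had 7135 to 13616 TPM in hSKP2-KI and 4126 to 6069 TPM in WT samples and rose by 0.96 (limma, adjusted p = 0.00599), although it was not called after median-ratio scaling. Mme, Azgp1 and Spink1 fell, with log2 differences of -2.08, -0.93 and -0.76, and Sbp and Sbpl, at -0.25 and -0.40, were not called. All 8 seminal vesicle genes of the table were under 1 TPM in every sample and 3 were at 0. Of the 10 epididymis genes, 6 were at 0 in all samples and 8 were under 1 TPM. The 2 that were not are Adam28, with 3.45 to 14.6 TPM over the 8 samples, which rose by 0.85 (limma, adjusted p = 0.0104), and Crisp1, which reached 3.74 TPM in WT mouse 4.

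The proximal luminal list of 7 genes, among them Krt4, Psca and Cyp2f2, which marks the epithelium of the ducts near the urethra, was higher in hSKP2-KI mice, as Wfdc2 was. Its mean log2(TPM + 1) was 7.42, 6.97, 6.77 and 7.40 in hSKP2-KI mice 1 to 4 and 5.78, 5.90, 5.80 and 5.88 in WT mice 1 to 4. It rose in hSKP2-KI samples by 1.30 with no overlap, and its adjusted p was 0.0449 by exact permutation. The order of the 4 hSKP2-KI mice on this list, 1, 4, 2 and 3, is their order for Wfdc2. In WT mice the orders differed, with the list running 2, 4, 3 and 1 and Wfdc2 running 4, 3, 2 and 1. Single genes did not share the hSKP2-KI order. Krt4 was highest in hSKP2-KI mouse 2 (240 TPM) and lowest in mouse 4 (118 TPM), and Psca was highest in mouse 4 (209 TPM) and lowest in mouse 2 (48.1 TPM). All 7 genes of the list were above 0 in all samples, with a summed 1063 to 1730 TPM in hSKP2-KI and 603 to 693 TPM in WT samples. Wfdc2 minus the list, within each sample, lay between -0.37 and 0.55 in hSKP2-KI and between -0.97 and -0.27 in WT mice, so the genotypes overlapped once the list was subtracted, with a mean difference of 0.71. Wfdc2 minus the general luminal list lay between -1.59 and -0.02 in hSKP2-KI and between -2.93 and -2.21 in WT mice, without overlap and with a mean difference of 1.85. The part of this epithelium in the Wfdc2 values was not tested.

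The macrophage list had means of 4.03, 5.12, 4.34 and 4.21 in hSKP2-KI mice 1 to 4 and 3.10, 3.68, 4.10 and 3.49 in WT mice 1 to 4. WT mouse 3 stood above hSKP2-KI mouse 1, and the difference of 0.83 had an adjusted p of 0.0698 by exact permutation. hSKP2-KI mouse 2, the highest on this list, was also highest for Wfdc17, Slpi and Wfdc1. The order of the 4 hSKP2-KI mice on it, 2, 3, 4 and 1, is their order for Wfdc17, but the fibroblast list put them in that order too. In WT mice the orders differed, with the macrophage list running 3, 2, 4 and 1 and Wfdc17 running 4, 3, 2 and 1. All 10 genes of the list were listed above 0, with a summed 331 to 856 TPM in hSKP2-KI and 139 to 298 TPM in WT samples. Wfdc17 minus the list lay between -0.13 and 0.51 in hSKP2-KI and between -1.17 and -0.09 in WT mice, which overlap at the edge, with a mean difference of 0.93. For Slpi the corresponding ranges, -2.07 to -0.40 and -2.85 to -1.44, overlapped more widely, with a mean difference of 0.68. The part of macrophages in either was not tested.

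Neutrophils, whose elastase Slpi inhibits, left little trace. Of the 9 genes of the neutrophil list, 6 were under 1 TPM in every sample and Camp was at 0 in all, and the summed level was 1.43 to 6.06 TPM in hSKP2-KI and 0.370 to 1.37 TPM in WT samples. The mean of the list rose by 0.21 on the log2(TPM + 1) scale, higher in 4 of 4 hSKP2-KI mice, with an adjusted p of 0.0449 by exact permutation. After median-ratio scaling the unadjusted exact permutation p was 0.0857. The S100a8 value of 3.48 TPM in hSKP2-KI mouse 2, where Slpi was also highest, was the largest of any gene on the list.

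The lists of stromal cells, beside which Wfdc1 is read, were higher in all 4 hSKP2-KI mice. The smooth muscle mean rose by 0.76, from 6.89 to 7.24 across WT samples to 7.58 to 8.06 across hSKP2-KI samples, and the fibroblast mean rose by 0.88, from 4.64 to 5.22 to 5.47 to 6.46. Both had an adjusted p of 0.0449 by exact permutation, and all 20 genes were listed above 0. Within the fibroblast list, Col6a3 went the other way. Its log2 difference was -0.45 as deposited and -0.71 after median-ratio scaling, and it was called on neither scale. The other genes of the fibroblast list were called higher as deposited. Wfdc1 minus the smooth muscle list lay between -3.42 and -3.13 in hSKP2-KI and between -3.94 and -3.30 in WT mice. The genotypes overlapped there, and they overlapped when the fibroblast list was subtracted, with mean differences of 0.30 and 0.17. The part of stroma in the Wfdc1 values was not tested.

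The other epithelial lists differed in their behaviour. The urothelial list rose by 1.04 with an adjusted p of 0.0449 by exact permutation, and hSKP2-KI mouse 4 was highest on it. The general luminal list rose by 0.16 as deposited, with an adjusted p of 0.0449 by exact permutation, but its difference was -0.10 after median-ratio scaling. The basal list differed by 0.43, with an adjusted p of 0.0698 by exact permutation and WT mouse 2 above hSKP2-KI mouse 1.

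**Figure D4:**
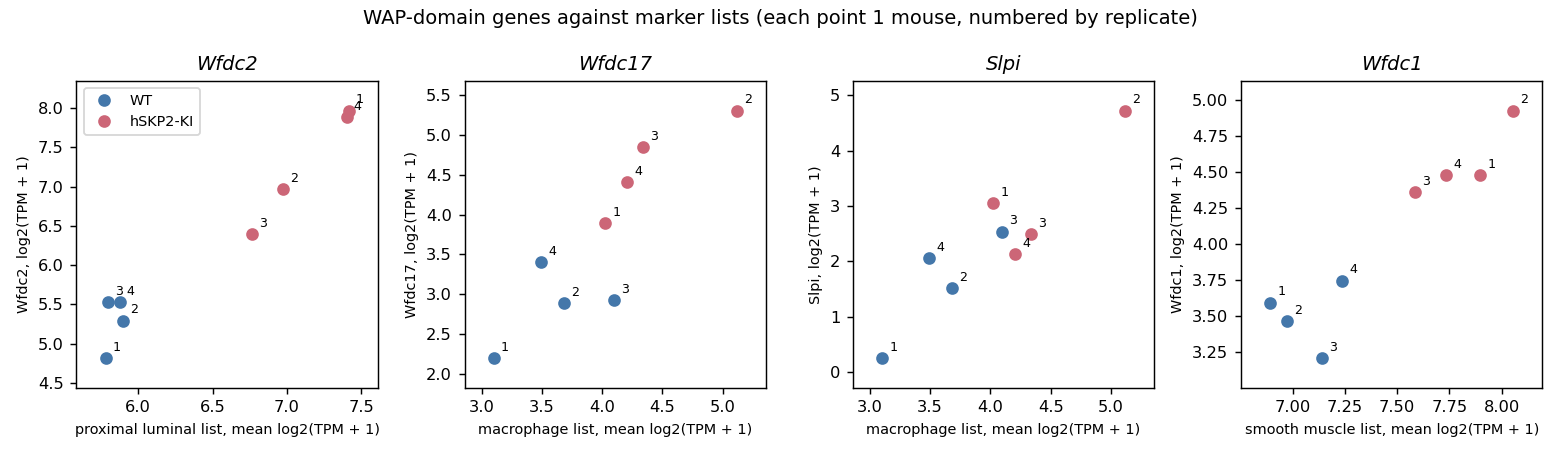
Each point is 1 mouse (number: replicate; blue: WT; red: hSKP2-KI), with the mean log2(TPM + 1) of a marker list on the x axis and log2(TPM + 1) of a WAP-domain gene on the y axis. Wfdc2 and the proximal luminal list put the 4 hSKP2-KI mice in the same order, as do Wfdc17 and the macrophage list. Neither pair puts the 4 WT mice in the same order. hSKP2-KI mouse 2 stands highest for Wfdc17, Slpi and Wfdc1.

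The proteases that such inhibitors can meet were counted in the same fit over all 13080 genes. Of 13 leukocyte serine proteases in the table, 5 passed the filter, 2 rose and none fell, where 32.7% of all genes were called higher and 1.23% lower, and the median log2 difference of the 5 was 0.54 against 0.23 over all tested genes. The 2 that rose, Cma1 and Tpsb2, are mast cell proteases, but Mcpt4, another mast cell protease and the most abundant of the 5, was not called (difference 0.54, limma, adjusted p = 0.216). Cma1, the mast cell chymase, rose by 0.79 (limma, adjusted p = 0.0232), and Tpsb2, a mast cell tryptase, rose by 0.72 (limma, adjusted p = 0.00778). Neither was called after median-ratio scaling. Elane and Ctsg, which encode the neutrophil elastase and cathepsin G that Slpi blocks, were near 0. Elane stood at 0.0969 TPM or less and Ctsg at 0.293 TPM or less in every sample. Prtn3, another neutrophil protease of the list, reached 1.20 TPM in hSKP2-KI mouse 2 and 0.611 TPM in hSKP2-KI mouse 4, against at most 0.281 TPM in WT samples. It did not pass the filter.

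Of 30 epithelial and secreted serine proteases, 16 passed the filter, 6 rose and 2 fell, with a median log2 difference of 0.31. Over all genes, 32.7% were called higher and 1.23% lower, and the median was 0.23. Htra3, a secreted protease of the HtrA family, rose by 1.18 (limma, adjusted p = 0.00456), Prss23 rose by 1.14 (limma, adjusted p = 0.000905) and F3, tissue factor, which is the receptor that starts coagulation and not itself a protease, rose by 1.11 (limma, adjusted p = 0.00530). Cela1, an elastase of the pancreatic type, fell by 0.46 (limma, adjusted p = 0.0140), and Tmprss2, the androgen-regulated transmembrane protease of prostate epithelium, fell by 0.44 (limma, adjusted p = 0.0169). These 5 were called in the same direction after median-ratio scaling, where 5 genes of the list were called higher and 3 lower. On that scale 6.92% of all genes were called higher and 4.25% lower.

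Of 22 genes listed as inhibitors of the Kunitz and Kazal types, 10 passed the filter, 4 rose and 2 fell, with a median log2 difference of 0.35. Over all genes, 32.7% were called higher and 1.23% lower. Whether each gene of the list inhibits a serine protease was not tested. Tfpi, the tissue factor pathway inhibitor, rose by 0.65 (limma, adjusted p = 0.00653), Fst, follistatin, rose by 0.57 (limma, adjusted p = 0.0140), and Spink5, a Kazal inhibitor of epithelial kallikreins, rose by 0.55 (limma, adjusted p = 0.0235). Spink1, one of the most abundant secretory transcripts of the lobe, fell by 0.76 (limma, adjusted p = 0.0219), from 89903 to 119903 TPM across WT samples to 50788 to 75952 TPM across hSKP2-KI samples. Spink8 fell by 0.54 (limma, adjusted p = 0.0338). After median-ratio scaling, 6.92% of all genes were called higher and 4.25% lower. None of the list was called higher there and 2, Spink8 and Spint1, were called lower, so that Spink1 was no longer called. Set against these amounts, the 8 WAP-domain genes together took at most 0.0314% of the TPM of any sample.

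The genes whose levels followed each member most closely among the 8 mice were found by Pearson's r of log2(TPM + 1) after the mean of each genotype had been subtracted, over 8 samples and all tested genes. These values describe the 8 libraries only and were not tested. For Wfdc2 they were Gabrp (r = 0.992), a GABA receptor subunit found in epithelia, Mgat3 (0.977) and Tyw5 (0.969). For Wfdc17 they were Klhdc2 (0.976), Sh3bp5 (0.962) and Tgfbr2 (0.959), and for Slpi they were Laptm4b (0.989), Atp13a2 (0.976) and Rgs10 (0.972). For Wfdc1 they included Ring1 (0.982) and Dhrs4 (0.972). For Wfdc6b they were Zfp280b (0.963), Bloc1s6 (0.957) and Slc18a1 (0.947), and for Wfdc3 they were Gm14440 (0.923), LOC108167806 (0.923) and Gm9776 (0.918).

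The members did not follow each other as a group. Among the 15 pairs of the 6 members that passed the filter, the highest r on the same measure was 0.68, between Slpi and Wfdc17, and the lowest was -0.61, between Slpi and Wfdc6b. Wfdc2 and its cluster neighbours Slpi, Wfdc6b and Wfdc3 had r of 0.10, -0.44 and -0.04.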

How the data were processed

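Ventral prostate RNA of 4 hSKP2-KI and 4 WT mice was sequenced by the authors from poly-A libraries, one per mouse. The authors deposited TPM, made in CLC software from trimmed paired-end reads, and the labels' processing notes name mm10 and GRCm38. The annotation and the treatment of strand and shared reads are not given in the sources used here. TPM carries no counts, so depth and counting error are unknown, and count models were not used. The table held 0 columns of other samples.

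Genes with at least 1 TPM in at least 4 of 8 samples (13080) were fitted as log2(TPM + 1) in R 4.3.3 with limma 3.58.1, letting the prior variance follow the mean, with Benjamini-Hochberg adjustment and a threshold of 0.05. The added 1 makes differences of low genes smaller than their TPM ratios. The procedure was tested on simulated data. Marker lists were compared by exact permutation. Figures were drawn with matplotlib 3.10.9.

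The members and gene lists were chosen with earlier results of these data known. Named genes were every member, every other family gene with at least 1 TPM in any sample, the called genes with the 3 largest rises and falls of each protease or inhibitor list, marker genes carrying a result, and the 3 genes most like each member. Family genes at 0, genes of the cluster, overlapping genes, Elane, Ctsg, Prtn3, Mcpt4, Spint1, Cldn4, Col6a3 and the targeted and mitochondrial genes were named outside that rule, after their values were seen. The core was searched as 8 cysteine codons at set spacings in the longest coding sequence of GENCODE M21. Positions are from GENCODE M21 and RefSeq on GRCm38, the build of the files. Amino acid sequences were not used here, and some genes within the naming rule are not reported here.

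Alternatives were leaving out each sample, a replicate block, quantile normalization, median-ratio scaling, rescaling after removal of the 20 most abundant genes, a pseudocount of 0.1, and either no filter or a mean TPM of at least 5. The labels give each library as a biological replicate and name no batch.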

Additional observations from a re-analysis of the deposited data

Results flagged for a closer look

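In 68 groups of 4 samples (family genes with at least 1 TPM in any sample, marker lists and named list genes, in each genotype), 4 held a sample far from the other 3, its gap to the nearest, as a share of the group's range, being above Dixon's 95% critical value. Chance alone marks about 1 in 20 groups. Eppin stood at 1.49 on the log2(TPM + 1) scale in hSKP2-KI mouse 2, against 0.81 to 0.91 in the other 3 hSKP2-KI mice. The seminal vesicle list had a mean of 0.0997 in hSKP2-KI mouse 2, against 0 to 0.0104, with all 8 of its genes under 1 TPM. F3 stood at 1.78 in WT mouse 1, against 2.24 to 2.28, and Cela1 at 5.69 in WT mouse 1, against 5.26 to 5.30. None of the 7 members examined was marked in this way, and Wfdc12, under 1 TPM throughout, was not examined.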

How the results depend on the processing

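No log2 difference of the 6 filtered members changed sign under any of the 15 alternatives. The count of members called was 4 as reported and 3 to 5 under alternatives. It was 3, without Wfdc6b, under no filter, median-ratio scaling, quantile normalization and rescaling, and 5 without hSKP2-KI mouse 4 or WT mouse 3 (Slpi added) and without WT mouse 2 (Wfdc3 added).

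The count over all genes was 1461 under median-ratio scaling, 1317 under quantile normalization and 1321 after rescaling, against 4433, of which 4272 were higher as deposited and 905 under median-ratio scaling. With single samples left out it ranged from 2993 to 4677. Leukocyte serine proteases called were 2 as reported, 1 with no filter, 0 at a mean TPM of at least 5 and 0 under median-ratio scaling, quantile normalization and rescaling, and 1 to 2 with single samples left out, being 1 without hSKP2-KI mouse 2, hSKP2-KI mouse 3 or WT mouse 1. At a mean TPM of at least 5, Cma1 and Tpsb2 did not pass the filter and were not fitted. Kunitz and Kazal inhibitors called were 6 as reported, 2 with no filter, 2 under median-ratio scaling, 1 under quantile normalization and 1 after rescaling, and 2 to 6 with single samples left out, the 2 being without hSKP2-KI mouse 2. Spink1 and Spink5, among the 20 most abundant genes, were not fitted after rescaling. Of the 12 named genes of these lists, Cela1, F3, Htra3, Prss23 and Tmprss2 stayed called in the same direction under every alternative, and the other 7 lost the call under 3 to 7 of them without changing sign. Alternatives in which a gene was not fitted are not counted there. The cause of the lost calls was not tested.

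Among marker lists, the luminal epithelial difference reversed to -0.10 under median-ratio scaling and to -0.0816 under quantile normalization and -0.0834 after rescaling. For the alternatives, the threshold of 0.05 was set on the unadjusted exact permutation p, and the adjustment over the 11 lists was not repeated. The reported adjusted p of 0.0449 (exact permutation) rests on 7 lists standing at the smallest p. With fewer lists there it would be larger, and the neutrophil and luminal epithelial lists left it after median-ratio scaling. The neutrophil difference was not past the threshold with a pseudocount of 0.1 (0.75), median-ratio scaling (0.18), quantile normalization (0.16) or rescaling (0.29), nor was the urothelial difference with a pseudocount of 0.1 (1.45). With single samples left out, differences ranged from 0.14 to 0.26 for neutrophil, 0.68 to 1.01 for fibroblast, 0.14 to 0.18 for luminal epithelial and 0.73 to 1.24 for urothelial genes, which missed the threshold without hSKP2-KI mouse 2 or any one WT mouse, without WT mouse 1, 3 or 4, without hSKP2-KI mouse 1, and without any one WT mouse, in that order. They ranged from 0.60 to 1.00 for macrophage and 0.31 to 0.52 for basal genes. On the unadjusted exact permutation p only, at 0.0286, macrophage genes passed it without WT mouse 3 and basal genes without hSKP2-KI mouse 1.

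Replicate numbers were taken as names only: after the genotype means were subtracted, same-numbered samples correlated at 0.22, -0.11, 0.17 and -0.01 across genes, which are not independent, and 2 of the 4 hSKP2-KI samples correlated best with the WT sample of their number. With the replicate block, 5128 genes and the same 4 members were called. Under the replicate block the exact sign-flip permutation test over 4 pairs cannot go below p = 0.125, so the differences of 0.21 for neutrophil, 0.88 for fibroblast, 0.76 for smooth muscle, 0.16 for luminal epithelial, -0.58 for ventral secretory, 1.30 for proximal luminal and 1.04 for urothelial genes could not pass there. Depth is unknown, so the values of Wfdc15b and Wfdc12, under 1 TPM in most samples, have no stated precision.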
